A study of Homo sapiens with 6 samples.

Results

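The replication-dependent histone genes were taken as every gene in the count table whose symbol is H1-1 to H1-6, H2AC, H2BC, H3C or H4C followed by a number. This gave 69 genes of 62700 in the table: 6 for the linker histone H1, 17 for H2A, 18 for H2B, 13 for H3 and 15 for H4. RNA was sequenced from KYSE510 cells, which derive from a squamous cell carcinoma of the oesophagus and were grown in RPMI 1640 medium with 10% FBS. There were 3 biological replicates with a control hairpin (shControl, genotype label WT) and 3 with a hairpin labelled shRNH1, made to build a model of induced R-loops, which are RNA-DNA hybrids with a displaced DNA strand. No further treatment, clone or time was given in the labels, and both groups came from the 1 line. Libraries were made from RNA bound to oligo-dT beads, so a transcript had to carry a run of A to be captured efficiently.

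Replication-dependent histone genes lie in clusters, carry almost no introns and supply the histones that package newly copied DNA in S phase. Their main mRNAs are unusual in ending not in a poly(A) tail but in a short conserved stem-loop. The stem-loop is bound by SLBP, and the pre-mRNA is cut just after it with the help of the U7 small nuclear RNP. Polyadenylated forms are made when transcription runs past that site to a later poly(A) signal, and are known from cell lines and differentiated cells. In poly(A)-selected libraries the value of a histone gene is therefore the part of its RNA that was retained on oligo-dT beads, and not its whole output. In bulk RNA, fewer cells in S phase and less RNA per cell cannot be told apart.

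The libraries held 31394687 to 41103220 counts, with 33420444, 33421217 and 31394687 in shRNH1 and 40225486, 41103220 and 40461210 in shControl. Levels below are CPM, counts brought to a common library size with trimmed mean (TMM) scaling. RNASEH1, the nuclease that degrades the RNA of RNA-DNA hybrids, was at 34.9, 32.5 and 27.5 CPM in shControl and at 7.40, 7.03 and 7.03 CPM in shRNH1, so the groups did not overlap (log2 fold change −2.14, SE 0.12, adjusted p = 1.6e-13 in the edgeR quasi-likelihood test). RNH1, the ribonuclease inhibitor that the label names, was at 516, 467 and 655 CPM in shControl against 441, 529 and 463 CPM in shRNH1, which overlapped (log2 fold change −0.19, SE 0.11, adjusted p = 0.22, edgeR). Of 13 squamous markers, 5 were higher and 6 lower in shRNH1, where 27.6% of all tested genes passed (adjusted p under 0.05, edgeR). TP63, a transcription factor of squamous cells chosen after its values were seen, was at 53.2 ± 3.6 CPM in shControl and 52.5 ± 4.4 CPM in shRNH1 (SD, n = 3). KRT5, a basal keratin, fell from 30.9 ± 2.6 to 12.3 ± 0.2 CPM (SD, n = 3). The keratin gene KRT6A fell by 2.13 on the log2 scale, and KRT13 and SOX2 rose by log2 fold changes of 1.29 and 2.68. Summed leukocyte markers were at 6.11 to 7.71 CPM in shControl and 8.24 to 10.4 CPM in shRNH1. Summed fibroblast markers were at 322 to 360 CPM and 512 to 572 CPM, with DCN, COL1A2 and FAP listed at 0. Of 5 fibroblast markers tested, FBLN1 and COL1A1, which hold most of that sum, rose by log2 fold changes of 0.79 and 0.98, while MFAP5 and PDGFRB fell by 2.04 and 0.91 on that scale. Summed endothelial markers were at 248 to 296 CPM and 313 to 359 CPM, with KDR listed at 0. Most of that sum was EGFL7, at means of 242 CPM in shControl and 310 CPM in shRNH1. PECAM1 was at 4.43 and 6.29 CPM and ESAM at 1.05 and 2.53 CPM. Of 6 endothelial markers tested, these 3 were higher and 0 lower. The part of these differences in the histone results was not tested.

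Histone transcripts made up 0.731% to 0.943% of the counts of a library. The summed histone level was 9553, 7271 and 10352 CPM in shControl (9059 ± 1599, SD, n = 3) and 8771, 7607 and 8648 CPM in shRNH1 (8342 ± 640, SD, n = 3). The groups overlapped, and the log2 ratio of the means was −0.12, less than the spread within shControl. With library sizes alone, without TMM, that ratio was 0.0001. H2A genes supplied 32.3% of the sum, H2B genes 23.3%, H3 genes 19.9%, H1 genes 19.1% and H4 genes 5.41%. The 10 most abundant genes held 63.6% of the sum, and 24 genes were at 100 CPM or more.

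The most abundant members were single genes of several classes. H3C2, a gene for histone H3, was at 1025, 792 and 1015 CPM in shControl and 952, 744 and 1002 CPM in shRNH1. H1-2, a linker histone gene, was at 849, 763 and 989 CPM against 824, 670 and 790 CPM. H2AC20, an H2A gene on chromosome 1, was at 777, 622 and 1039 CPM against 777, 780 and 756 CPM. H1-4, another linker histone gene, was at 648, 486 and 753 CPM against 643, 558 and 651 CPM. In each of these 4 genes the groups overlapped, and shControl replicate 2 was the lowest shControl library. Per kilobase of RefSeq gene span (511 bases in H3C2), H3C2 was at 1804 CPM, H2AC20 at 1603 CPM and H1-2 at 1114 CPM. Other genes were divided by the length of all their annotated exons together, 3519 bases in ACTB and 2981 in GAPDH. The 2 scales are therefore not alike. By exon length the cytoskeletal gene ACTB was at 4770 CPM, GAPDH of glycolysis at 1646 CPM and SLBP at 56.4 CPM. Among 58203 genes ranked by these values, 17 histone genes were in the top 100, with H3C2 at rank 4 and H2AC20 at rank 8. The unlike lengths can raise the histone ranks, and the 8 members that span over 1000 bases were not ranked.

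Levels differed by orders of magnitude between neighbours. Of the 69 genes, 34 lie in the proximal cluster of chromosome 6 (45.8% of the histone sum), 21 in the distal cluster (35.2%), 11 in a cluster of chromosome 1 (17.9%), 2 farther along chromosome 1 and 1 on chromosome 12. On chromosome 6, 7 adjacent members, H1-3, H4C6, H4C7, H3C7, H2BC9, H3C8 and H2BC10, held 6 counts between them over all 6 libraries, and none held more than 3. They lie at chr6:26234212-26273412 (GRCh38). The member before them, H3C6, had 1087 counts and the one after them, H4C8, had 8006. Of all members, 5 were listed at 0 in every library, namely H2AC1, a gene known from testis, and H4C6, H4C7, H2BC9 and H3C8.

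**Figure D1:**
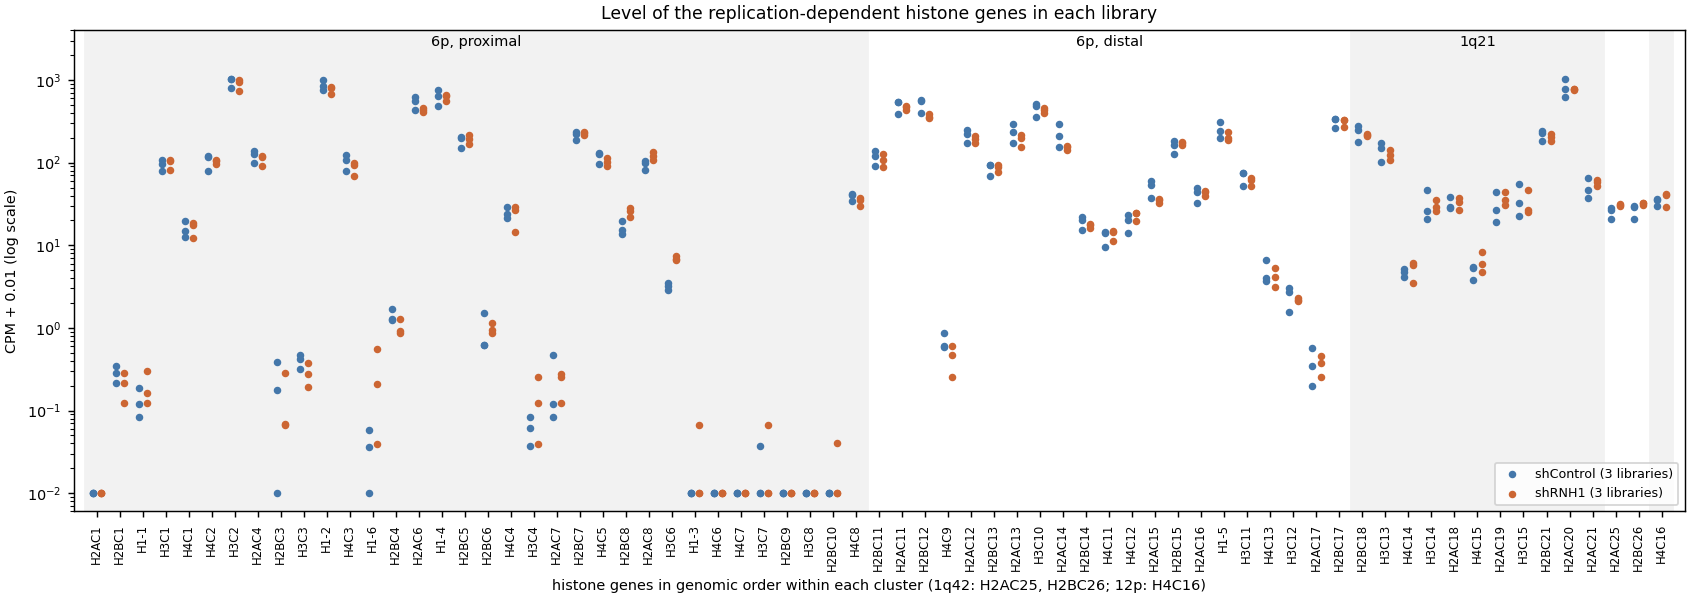
Level of each of the 69 histone genes (CPM + 0.01, log axis) in genomic order within each cluster, 1 point per library, shControl blue and shRNH1 orange. The run of 7 members between H3C6 and H4C8 sits at the bottom of the axis in nearly all libraries, while H3C2, H1-2 and H2AC20 reach 1000 CPM or come near it.

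Sequence features of the genes are shown first, because they bear on which transcripts an oligo-dT bead can hold and on how neighbours share a promoter. GENCODE 29 transcripts were found for 65 of the 69 members, and a histone stem-loop was found in those of 29. The 6-base stem is in lower case and the 4-base loop in capitals.
Stem-loop of 15 genes, among them H2AC25, H2AC6, H2BC8 and H2AC8: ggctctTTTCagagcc
Stem-loop of 5 genes: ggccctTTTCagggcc
Stem-loop of 4 genes, among them H2BC4 and H2BC5: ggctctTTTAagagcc
Stem-loop of 3 genes, among them H4C15: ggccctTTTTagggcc
Stem-loop of H3C6: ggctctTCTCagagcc
Stem-loop of 1 further gene, H2AC11: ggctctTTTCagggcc
The H3C6 form was in no other of the 29 members. In 28 of the 29 genes an annotated transcript went on for 30 bases or more past the stem-loop, for example by 1059 bases in H2BC8, 51 in H2AC8, 390 in H2AC25, up to 1128 in H2AC6 and up to 1862 in H3C6. Many of the other entries hold the coding sequence alone, so a missing stem-loop there says only that these letters are not in the annotated transcript.

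Among the histone genes, 13 pairs start head to head, with 193 to 247 bases between the starts, and 25 members belong to such a pair. The stretches between the starts of 4 pairs and the 200 bases before H3C6 are printed because they hold the starts of 6 of the 8 genes that passed the test. They come from RefSeq, GRCh38.p14, and the capitals mark CCAAT, the TATA box TATAAA and the octamer ATTTGCAT on either strand.
H2BC8 and H2AC8, chr6:26216689-26216920, plus strand: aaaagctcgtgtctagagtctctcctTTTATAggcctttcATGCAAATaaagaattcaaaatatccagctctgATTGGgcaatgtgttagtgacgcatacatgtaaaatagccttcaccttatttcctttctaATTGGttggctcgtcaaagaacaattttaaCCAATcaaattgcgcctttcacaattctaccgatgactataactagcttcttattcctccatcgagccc
H3C6, chr6:26223978-26224177, plus strand: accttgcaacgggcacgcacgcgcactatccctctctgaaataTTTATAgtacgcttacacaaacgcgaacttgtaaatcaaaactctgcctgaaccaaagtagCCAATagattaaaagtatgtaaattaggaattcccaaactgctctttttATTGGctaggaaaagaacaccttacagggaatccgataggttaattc
H2BC12 and H2AC12, chr6:27146859-27147105, minus strand: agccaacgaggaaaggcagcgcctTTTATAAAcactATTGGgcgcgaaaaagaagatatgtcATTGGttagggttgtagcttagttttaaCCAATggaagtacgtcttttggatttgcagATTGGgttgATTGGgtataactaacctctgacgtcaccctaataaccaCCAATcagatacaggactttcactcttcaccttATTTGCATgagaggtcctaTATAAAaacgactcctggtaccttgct
H2AC15 and H2BC15, chr6:27838376-27838568, minus strand: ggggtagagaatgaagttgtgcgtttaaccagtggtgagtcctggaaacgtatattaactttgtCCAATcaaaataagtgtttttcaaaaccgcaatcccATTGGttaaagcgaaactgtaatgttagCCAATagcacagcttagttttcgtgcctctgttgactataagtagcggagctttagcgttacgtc
H2AC14 and H2BC14, chr6:27814778-27815021, minus strand: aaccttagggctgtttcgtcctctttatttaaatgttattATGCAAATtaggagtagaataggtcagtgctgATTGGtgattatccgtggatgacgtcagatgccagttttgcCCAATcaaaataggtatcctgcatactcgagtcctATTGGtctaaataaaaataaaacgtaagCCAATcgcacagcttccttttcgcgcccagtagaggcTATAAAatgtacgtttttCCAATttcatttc
The H2BC12 and H2AC12 stretch held CCAAT 6 times and the H2AC14 and H2BC14 stretch 5 times. The stretches at H2BC8 and at H2AC15 held it 3 times each, and the one before H3C6 held it 2 times. Over the window from 250 bases before to 50 after each start, CCAAT was in 54 of the 64 members with a RefSeq promoter, or 84.4%, against 35.7% of 27305 promoters. TATAAA was in 42 members, or 65.6%, against 11.95% of promoters. The octamer was in 26 members, or 40.6%, against 1.80%. By class it was in 14 of 18 H2B and 11 of 16 H2A promoters, in 1 of 11 H3 promoters, and in 0 of 6 H1 and 0 of 13 H4 promoters. CCAAT was in every H1, H2A, H2B and H3 promoter matched, and in 3 of 13 H4 promoters. CCAAT was in all 4 genes that rose and all 4 that fell, which follows from their classes, since all are H2A, H2B or H3 genes. The octamer was in 2 of the 4 that rose and 3 of the 4 that fell. Of the 42 matched genes that did not pass, 33 held CCAAT and 14 the octamer.

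The libraries numbered 2 stood apart for the histone genes before any group comparison. Of the 55 histone genes with enough counts to be tested, 52 (94.5%) had their lowest shControl value in shControl replicate 2, where 31.5% of all 19682 tested genes did. In shRNH1, 43 (78.2%) were lowest in replicate 2, against 37.5% of all genes. Those 43 were lowest in both libraries numbered 2, as were 11.0% of all genes. The median histone gene lay 0.30 below its group mean in shControl replicate 2 and 0.12 below in shRNH1 replicate 2 on the log2 CPM scale, and the median of all genes lay within 0.01 of it in both. H1, H2A, H2B, H3 and H4 genes were low together in shControl replicate 2, with medians of −0.32, −0.31, −0.30, −0.33 and −0.28. Among genes at 10 CPM or more, the median SD of log2 CPM was 0.28 for histone genes and 0.10 for all genes in shControl, and 0.17 and 0.11 in shRNH1.

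The same libraries were compared for RNAs that carry no poly(A) tail and for cell cycle genes, a comparison chosen after the values were seen. RMRP, the RNA of an RNase complex, was at 553, 320 and 430 CPM in shControl and at 509, 314 and 424 CPM in shRNH1, with replicate 2 lowest in both groups. RN7SL1, the RNA of the signal recognition particle, was at 7868, 4995 and 7075 CPM in shControl and at 5100, 4202 and 4409 CPM in shRNH1, again with replicate 2 lowest. Other RNAs of this kind did not all show this order. RN7SL3 was lowest in replicate 2 of shControl but in replicate 3 of shRNH1, at 68.5, 43.9 and 57.9 CPM against 37.0, 33.7 and 25.4 CPM. Summed small nucleolar RNA genes were at 165, 144 and 130 CPM against 128, 109 and 145 CPM. Summed small nuclear RNA genes were at 87.3, 83.3 and 74.3 CPM against 75.5, 80.2 and 96.2 CPM, and RN7SK, RN7SL2, RPPH1 and RNU7-1 were listed at 0. The median S phase gene of 36 lay 0.01 below its group mean in shControl replicate 2 and 0.06 below in shRNH1 replicate 2. The median G2 and M phase gene of 30 lay 0.003 above in shControl replicate 2 and 0.11 below in shRNH1 replicate 2, the latter close to the histone value. H2AX, a histone gene outside the set, lay 0.22 below in shControl replicate 2 and 0.20 above in shRNH1 replicate 2. The median of 154 other short mRNAs, with no transcript over 800 bases, lay 0.002 and 0.03 below. Between the groups, RN7SL1 was lower in shRNH1 although its groups overlapped (log2 fold change −0.54, SE 0.13, adjusted p = 0.0031, edgeR). RMRP did not pass (log2 fold change −0.06, SE 0.15, adjusted p = 0.81, edgeR). How much RNA without a tail each library retained, and its part in the histone values, was not tested.

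**Figure D2:**
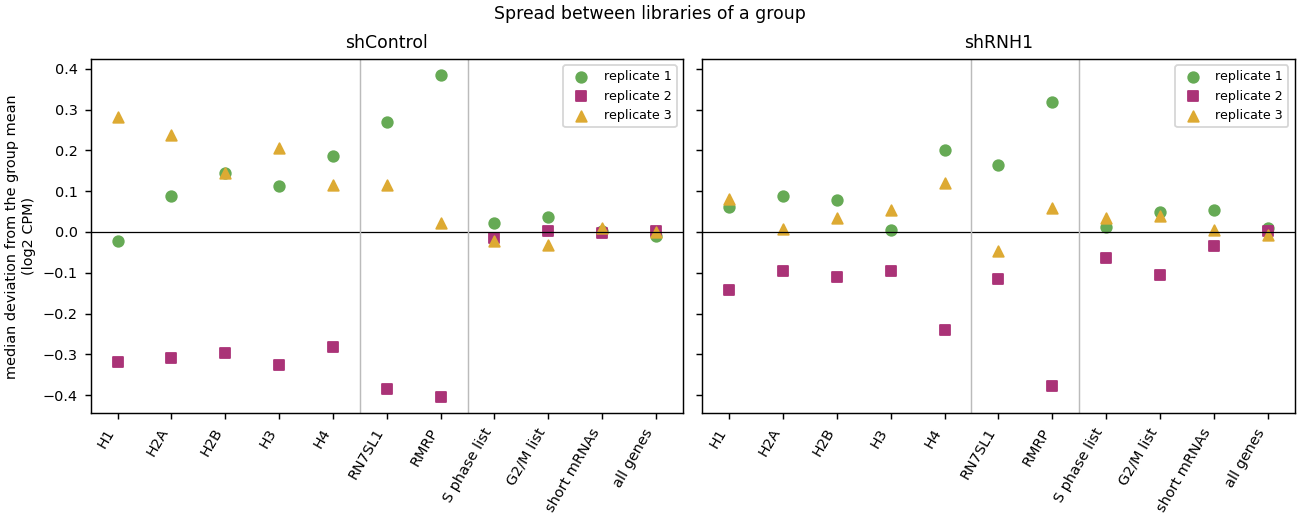
Median deviation of log2 CPM from the group mean in each library, for the 5 histone classes, RN7SL1, RMRP, the S phase and G2/M lists, short mRNAs and all tested genes. The magenta squares of replicate 2 lie near −0.3 for every histone class in shControl and near 0 for the S phase list, short mRNAs and all genes there.

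Between the groups, 4 histone genes were higher and 4 lower in shRNH1. The higher ones were H3C6, H2BC8, H2AC8 and H2AC25, and the lower ones H2AC15, H2AC14, H2BC12 and H2AC6. These 8 were 14.5% of the 55 tested, where 27.6% of all tested genes passed (15.3% higher and 12.3% lower; edgeR quasi-likelihood test, Benjamini-Hochberg adjusted p under 0.05 over all genes). The median log2 fold change was −0.07 over the histone genes and 0.02 over all genes, with 34 histone genes below 0 and 21 above. Groups did not overlap in 7 histone genes (12.7%), where 40.0% of all genes had groups that did not overlap. Among the 38 members at 10 CPM or more that did not pass, log2 fold changes ran from −0.32 to 0.30. The other 14 members were not tested, each with at most 52 counts over the 6 libraries, and the tested member with fewest had 74. With library sizes alone the split was 9 higher and 3 lower of 55, against 4065 and 1433 of 19682 genes. The median was then 0.05, while the median over all genes moved from 0.02 to 0.13. Without shControl replicate 2 there were 2 higher and 12 lower of 55, with a median of −0.22, against 2546 and 2108 of 19972 genes. The histone share that passed was then no longer below that of all genes. Without shControl replicate 3 there were 8 higher and 2 lower of 55, with a median of 0.001, against 2996 and 2179 of 20180 genes. Without shRNH1 replicate 1 the number that passed was 5 of 58, against 4150 of 20914 genes. Without both libraries numbered 2, tried after seeing the data, 3 were higher and 7 lower of 56. No count over all genes was given there, so that share cannot be read against all genes.

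**Figure D3:**
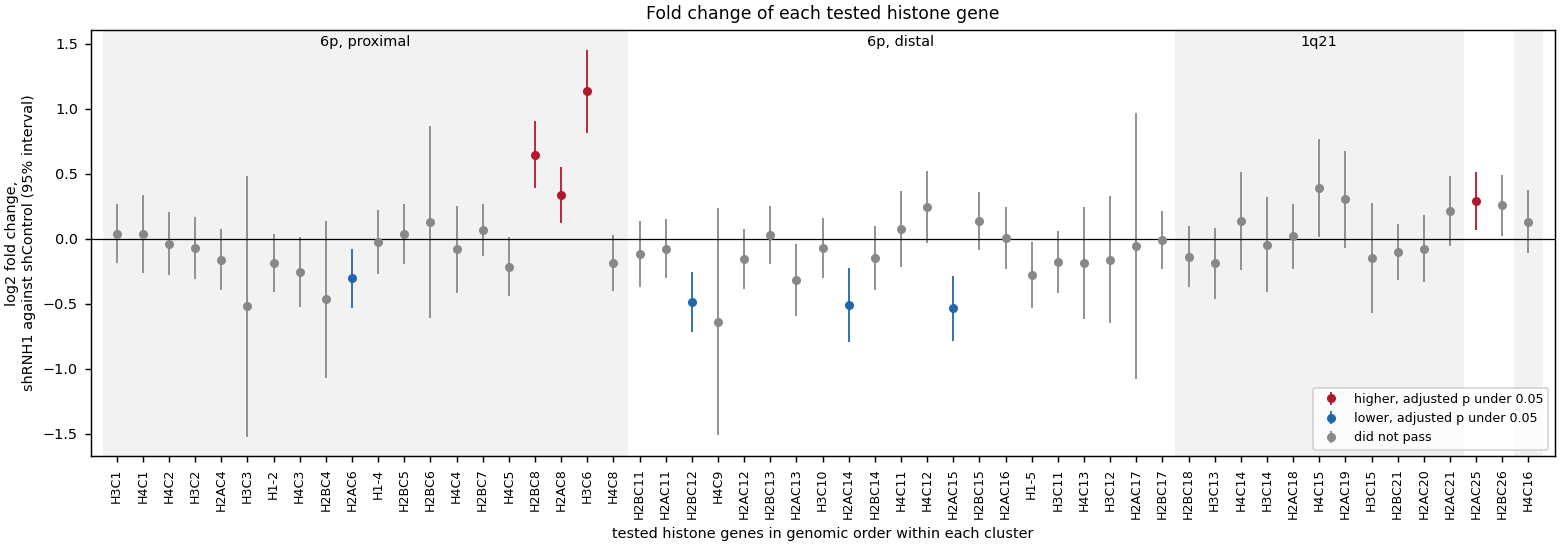
Log2 fold change of shRNH1 against shControl with its 95% interval for the 55 tested histone genes in genomic order within each cluster. Red points are the 4 genes that rose, blue points the 4 that fell, and grey points did not pass. H2BC8, H2AC8 and H3C6 stand next to each other above 0, and the 3 genes that fell in the distal cluster lie among grey points.

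H3C6, which encodes histone H3, rose most. It had 126, 119 and 128 counts in shControl, or 3.24, 2.88 and 3.47 CPM, and 234, 233 and 247 counts in shRNH1, or 6.90, 6.63 and 7.49 CPM. Every shRNH1 library was above every shControl library, and replicate 2 was the lowest library of each group. The fold change was 2.19 (95% interval 1.76 to 2.74; log2 1.13, SE 0.16, adjusted p = 3.2e-06, edgeR). The gene lies on the plus strand at chr6:26224178-26227473, a span of 3296 bases that reaches well past the usual histone transcript.

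H2BC8 and H2AC8, the divergent pair shown above, lie just upstream of H3C6 on the same chromosome and rose together. H2BC8, an H2B gene at chr6:26216200-26216688 on the minus strand, was at 19.7, 13.5 and 15.3 CPM in shControl and 28.1, 22.0 and 25.8 CPM in shRNH1. Its groups did not overlap, and the fold change was 1.57 (95% interval 1.31 to 1.87; adjusted p = 2.7e-04, edgeR). H2AC8, an H2A gene at chr6:26216921-26217437 on the plus strand, was at 98.9, 81.6 and 104 CPM against 134, 106 and 119 CPM. The lowest shRNH1 library stood just above the highest shControl library, and the fold change was 1.26 (95% interval 1.09 to 1.46; adjusted p = 0.015, edgeR). Without shControl replicate 2 or without shRNH1 replicate 1, H2AC8 did not pass. H4C5, the next member upstream, was at 128, 96.6 and 131 CPM against 114, 90.1 and 102 CPM, and its groups overlapped.

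H2AC25, an H2A gene at chr1:228457364-228457873 away from the main clusters, was at 27.9, 20.7 and 26.6 CPM in shControl and 29.9, 30.5 and 31.6 CPM in shRNH1. All shRNH1 values were above the shControl values, and the fold change was 1.22 (95% interval 1.05 to 1.43; adjusted p = 0.046, edgeR). Its divergent partner H2BC26 was at 29.2, 20.9 and 29.6 CPM against 32.3, 30.8 and 32.1 CPM, also without overlap, and did not pass (adjusted p = 0.097, edgeR). H2AC25 lay near the threshold and did not pass in DESeq2, nor without any 1 of the shRNH1 libraries. Without shControl replicate 2 its log2 fold change went from 0.29 to 0.16 and did not pass.

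The 4 genes that fell were 3 H2A genes and 1 H2B gene. H2AC15, at chr6:27837880-27838375 on the minus strand, was at 53.7, 37.4 and 59.7 CPM in shControl and 35.7, 32.7 and 35.8 CPM in shRNH1, without overlap (fold change 0.69, 95% interval 0.58 to 0.82, adjusted p = 0.0015, edgeR). H2BC12, an H2B gene at chr6:27138293-27146858 on the minus strand, was at 569, 400 and 556 CPM against 387, 342 and 360 CPM (fold change 0.71, 95% interval 0.61 to 0.84, adjusted p = 0.0017, edgeR). The groups of H2BC12 did not overlap, and its lowest shControl library was again replicate 2. H2AC14, at chr6:27814302-27814777 on the minus strand, was at 209, 155 and 290 CPM against 155, 142 and 161 CPM. Its groups overlapped, with shControl replicate 2 inside the shRNH1 range, and the fold change was 0.70 (95% interval 0.58 to 0.85; adjusted p = 0.0059, edgeR). H2AC6, at chr6:26124172-26124690 on the plus strand, was at 553, 432 and 626 CPM against 461, 406 and 437 CPM. Its groups overlapped too, and the fold change was 0.81 (95% interval 0.69 to 0.95; adjusted p = 0.043, edgeR). Without shControl replicate 3 the log2 fold change of H2AC14 went from −0.51 to −0.25 and did not pass. In DESeq2 it was −0.54 and did not pass (adjusted p = 0.15). H2AC6 lay near the threshold and did not pass without any 1 of shControl replicate 1, shControl replicate 3 or the 3 shRNH1 libraries. Its log2 fold change of −0.31 became −0.18 without shControl replicate 3, −0.19 with library sizes alone (adjusted p = 0.13, edgeR) and −0.15 with the expression level offset (adjusted p = 0.37, edgeR).

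**Figure D4:**
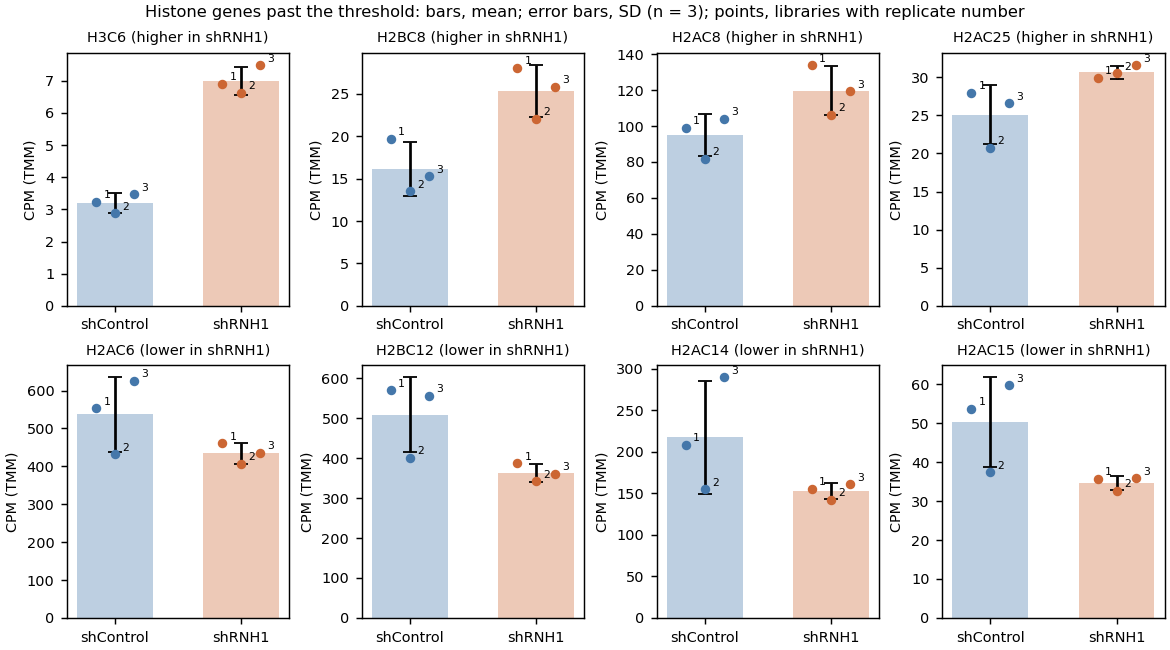
CPM of the 8 histone genes past the threshold, with bars for the mean, error bars for the SD (n = 3) and points for the libraries, marked with the replicate number. H3C6 shows the widest gap between groups, while shControl replicate 2 of H2AC14 and H2AC6 falls to the level of the shRNH1 libraries.

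Several of these genes share sequence with copies, which limits how reads can be told apart. The share of each gene's 50-base words that also occur in another gene, on either strand, was computed from GENCODE 29 transcripts. It was 100% for H2AC15, since the annotated H2BC15 transcript runs across it. It was 83.7% for H2AC14, all of it shared with H2AC13. For H2BC12 it was 74.1%, mostly shared with its near copy H2BC12L, and H4C9 also lies within its span. The fourth gene that fell, H2AC6, shared 0.42%. The 4 genes that rose shared 0 to 1.71%. Over the 65 members measured the median was 1.71%, and 14 members shared more than 50%. Values of H2AC15, H2AC14 and H2BC12 are therefore uncertain as to which copy or strand they count, because no source used here gives the counting rule. H2AC13, the copy of H2AC14, was at 236, 173 and 297 CPM in shControl and 213, 157 and 198 CPM in shRNH1, overlapping and below the threshold (log2 fold change −0.32, adjusted p = 0.085, edgeR).

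The ratio between the genes of a head-to-head pair was compared in each library. Of the 13 pairs, 10 had both genes tested, and in 5 of them the log2 ratio of the pair did not overlap between groups. The levels of 40.0% of all single genes did not overlap, but that share is no baseline for ratios. A ratio cancels a shift that both genes share in a library, and no share was computed for ratios of other genes. Of these 5 pairs, only H2BC13 with H2AC13 holds no gene that passed. The ratio of H2AC15 to H2BC15 was −1.59, −1.75 and −1.61 in shControl and −2.32, −2.32 and −2.28 in shRNH1, on the log2 scale. H2BC15 itself was at 161, 126 and 182 CPM against 178, 163 and 174 CPM. The ratio of H2BC12 to H2AC12 was 1.20, 1.22 and 1.34 against 0.88, 0.99 and 0.91. That of H2AC14 to H2BC14 was 3.38, 3.35 and 3.73 against 3.12, 3.15 and 3.20. In the other direction, the ratio of H2BC8 to H2AC8 was −2.33, −2.60 and −2.77 against −2.25, −2.27 and −2.21. The ratio of H2BC13 to H2AC13 was −1.34, −1.34 and −1.68 against −1.20, −1.01 and −1.16. A ratio within a library does not depend on how libraries are scaled. It does depend on how reads of shared sequence were assigned. H2AC15, H2AC14, H2BC12 and H2AC13 share 100%, 83.7%, 74.1% and 62.3% of their 50-base words, and all of H2AC15 lies in the annotated H2BC15 transcript. Each of these 5 differences had p = 0.1 in a two-sided exact permutation test, the smallest that 3 against 3 libraries allow, and 0.2 after adjustment over the 10 pairs. The pairs were examined after the gene values had been seen.

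**Figure D5:**
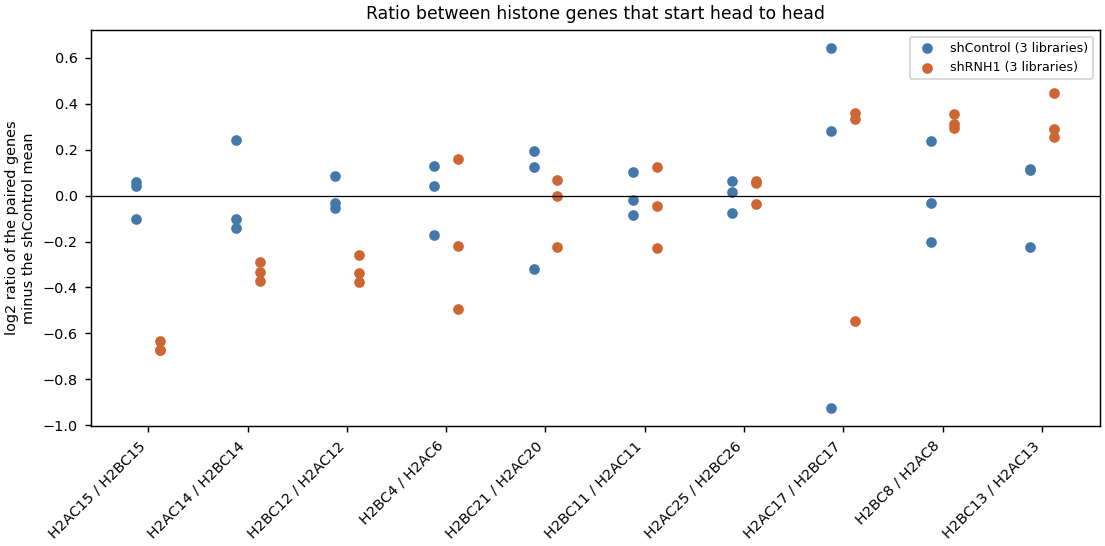
Log2 ratio of the 2 genes of each head-to-head pair, minus the mean of the 3 shControl libraries, for the 10 pairs with both genes tested. Each point is a library. The orange shRNH1 points of H2AC15 / H2BC15 lie near −0.65, clear of the blue shControl points, and those of H2BC4 / H2AC6 and H2AC17 / H2BC17, where 1 gene is near its floor, are spread widely. The annotated H2BC15 transcript runs across H2AC15, so it is uncertain which of the 2 genes a read was counted for.

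Genes were also set against the annotation of their ends. Of the 28 members annotated 30 bases or more past a stem-loop, 26 were tested, 4 were higher and 1 lower, and the median log2 fold change was −0.005, where 15.3% of all genes were higher and 12.3% lower. Of the 37 other members with GENCODE transcripts, 25 were tested, 0 were higher and 3 lower in edgeR, and the median was −0.15. The share that passed was below the 27.6% of all genes in both sets. In those 25, none was higher at an unadjusted p under 0.05 either, nor in DESeq2 or limma-voom, and 4 were lower at an unadjusted p. The difference between these sets was not tested, and the 3 lower genes are those with shared sequence named above.

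By class, the H1 genes held 3 tested members and the H4 genes 13, and 0 passed in either class in edgeR, DESeq2 or limma-voom. At an unadjusted p under 0.05, 1 H1 gene was lower and 1 H4 gene higher. H1-5, a linker histone gene, was at 240, 196 and 312 CPM in shControl and 198, 186 and 234 CPM in shRNH1 (adjusted p = 0.10, edgeR). Among the most abundant H4 genes, H4C3 was at 124, 78.5 and 107 CPM against 97.9, 68.0 and 92.9 CPM. H4C2 was at 122, 78.7 and 117 CPM against 108, 96.1 and 105 CPM. H4C8 was at 42.2, 34.2 and 40.0 CPM against 35.7, 29.8 and 36.9 CPM. Groups overlapped in all 4 of these genes. Summed levels were 1745 ± 304 CPM in shControl and 1585 ± 148 CPM in shRNH1 for H1 genes, and 488 ± 87 and 455 ± 63 CPM for H4 genes (SD, n = 3).

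The abundant H2A, H2B and H3 genes that did not pass gave the same picture of overlap. H2AC11 was at 541, 391 and 538 CPM in shControl and 490, 438 and 466 CPM in shRNH1. H2BC17 was at 339, 261 and 338 CPM against 329, 270 and 332 CPM, and H2BC7 at 236, 188 and 222 CPM against 226, 214 and 238 CPM. In these 3 genes shControl replicate 2 was the lowest shControl library and shRNH1 replicate 2 the lowest of its group. H2BC18 was at 250, 180 and 279 CPM against 216, 209 and 220 CPM. Among H3 genes, H3C10 was at 481, 358 and 515 CPM against 428, 395 and 463 CPM. H3C13 was at 151, 102 and 174 CPM against 107, 142 and 125 CPM, and H3C1 at 109, 80.2 and 95.01 CPM against 104, 81.6 and 107 CPM. Groups overlapped in each of these genes, and the adjusted p in edgeR was at least 0.32 in H3C13, the lowest of them.

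Histones that are not tied to replication are made from genes with ordinary poly(A) mRNAs and serve chromatin outside S phase. Of 11 such genes tested, 3 were higher and 4 lower, with a median log2 fold change of 0.12, where 27.6% of all genes passed. Scaled by library sizes alone, 6 were higher and 1 lower (median 0.23), and with the expression level offset 4 were higher and 2 lower. H2AZ2, which encodes a form of the variant H2A.Z, rose from 89.0 ± 4.2 to 133 ± 6 CPM, and the linker histone gene H1-10 from 237 ± 25 to 335 ± 15 CPM (SD, n = 3). H2AX, which encodes the H2A variant phosphorylated at DNA breaks and has both stem-loop and polyadenylated mRNAs, fell from 1023 ± 212 to 732 ± 94 CPM (SD, n = 3; log2 fold change −0.48, adjusted p = 0.0037, edgeR).

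Genes that make, cut or remove histone mRNA were taken from lists of known factors. For 3′ end processing, 0 of 23 were higher and 6 lower in edgeR, with a median log2 fold change of −0.08. The share that passed was near the 27.6% of all genes (15.3% higher and 12.3% lower), and the split by direction was not tested. DESeq2 also called 0 higher and 6 lower, limma-voom 0 higher and 7 lower, and at an unadjusted p under 0.05 edgeR gave 2 higher and 9 lower. With library sizes alone, without TMM, 2 were higher and 3 lower, and the median turned to 0.03. CSTF2, a cleavage stimulation subunit, fell from 66.4 ± 3.9 to 45.2 ± 2.5 CPM (SD, n = 3; log2 fold change −0.56, adjusted p = 4.6e-05, edgeR). CPSF1, CPSF4 and WDR33, subunits of the cleavage and polyadenylation factor of ordinary poly(A) mRNAs, fell by 0.48, 0.41 and 0.33 on the log2 scale. The list is thus not limited to factors particular to histone mRNA. SLBP was at 111 ± 16 CPM in shControl and 117 ± 10 CPM in shRNH1 and LSM11, a protein of the U7 particle, at 14.2 ± 0.7 and 13.4 ± 0.8 CPM (SD, n = 3), both named after their values were seen and neither past the threshold.

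For transcription of histone genes and the histone locus body, 3 of 19 were higher and 3 lower, with a median of 0.02 (4 and 1 with library sizes alone, median 0.13). Over all genes 15.3% were higher and 12.3% lower. The cell cycle factors E2F2 and E2F1 rose by log2 fold changes of 0.68 and 0.49, and CDC25A, the phosphatase that activates CDK2, fell by 0.52 on that scale. NFYC, a subunit of the factor that binds CCAAT, fell from 67.2 ± 2.5 to 53.4 ± 1.1 CPM (SD, n = 3; adjusted p = 0.0063, edgeR). NPAT, the coactivator of histone genes, was at 14.8 ± 1.0 and 16.5 ± 0.6 CPM (SD, n = 3) and did not pass; it too was chosen after its values were seen. For decay of histone mRNA, 0 of 17 were higher and 5 lower in edgeR, a share near the 27.6% of all genes, with a median of −0.07. There, 0 were higher and 7 lower at an unadjusted p under 0.05, 0 and 5 in DESeq2 and 0 and 4 in limma-voom. Scaling by library sizes alone gave 0 higher and 1 lower, and the median turned to 0.04. Without shControl replicate 1, 2 were lower, and 3 were lower without shControl replicate 3, shRNH1 replicate 1 or shRNH1 replicate 2. UPF2, of the decay machinery that also removes faulty mRNAs, fell by 0.46 on the log2 scale, and the exosome subunits DIS3 and EXOSC3 by 0.37 and 0.31. The decapping enzyme gene DCP2 fell by 0.35 on that scale.

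For histone chaperones and assembly factors, 1 of 28 was higher and 4 lower, with a median of −0.02, where 27.6% of all genes passed. With library sizes alone 5 were higher and 4 lower, and the median turned to 0.09, and with an offset for expression level 4 were higher and 3 lower. Without shRNH1 replicate 2 there were 2 higher and 6 lower, with a median of 0.04. ASF1B, a chaperone of H3 and H4, rose from 98.1 ± 10.3 to 142 ± 4 CPM (SD, n = 3; log2 fold change 0.53, adjusted p = 9.3e-05, edgeR). TONSL, which reads newly made histones at forks, fell from 337 ± 55 to 224 ± 23 CPM (SD, n = 3; adjusted p = 1.8e-04, edgeR). HJURP, the chaperone of the centromeric H3 variant, and DNAJC9 fell by 0.36 and 0.39 on the log2 scale.

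Cell cycle genes moved in both directions. Of 36 S phase genes, 7 were higher and 5 lower, with a median log2 fold change of −0.02. When scaled by library sizes alone, 12 were higher and 3 lower (median 0.097), and with the expression level offset 10 and 3 (median 0.073). The 12 calls became 7 without shRNH1 replicate 1 and 6 without shRNH1 replicate 3. MCM6 of the replicative helicase rose from 60.4 ± 3.1 to 78.8 ± 3.5 CPM and PCNA, the sliding clamp, from 74.1 ± 4.8 to 95.1 ± 6.3 CPM, while TYMS, which makes thymidylate, fell from 112 ± 15 to 74.2 ± 1.5 CPM (SD, n = 3). Of 30 G2 and M phase genes, 2 were higher and 7 lower, with a median of −0.14 (2 and 5 with library sizes alone, median −0.03). CDC20, an activator of the anaphase-promoting complex, fell from 732 ± 113 to 466 ± 33 CPM, and CCNB1, which encodes the mitotic cyclin B1, from 228 ± 10 to 169 ± 16 CPM (SD, n = 3). Over these 2 lists the shares called were not tested against the 27.6% of all genes, and the part of cell cycle position in the histone values was not tested.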

How the data were processed

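The deposited table gives raw read counts per Ensembl gene for 6 libraries. HISAT2, StringTie, DESeq2 and the GRCh38 build are named, without roles, per the submitters' processing notes. No source used here gives the counter, strand setting or annotation release. Symbols came from an Ensembl name table (62700 of 62700 matched) and coordinates from RefSeq GRCh38.p14. Counts were tested in R 4.3.3 with edgeR 4.0.16 (TMM, filterByExpr by group, quasi-likelihood test, Benjamini-Hochberg over 19682 genes). The alternatives were DESeq2 1.42.0, limma-voom (limma 3.58.1), other scalings, filters and offsets, and leaving libraries out. On simulated data the test recovered 88% of 1.5-fold and 100% of 2-fold changes, over 19183 genes, and 5.05% of its calls were false. Smaller changes, such as the fold changes of 1.22 in H2AC25 and 1.26 in H2AC8, were not tested there. Whether these rates hold for the histone genes was not tested. Named genes are all members past the threshold, the 4 most abundant tested members of each class and up to 4 called genes per list. The members and lists were chosen with earlier results of these data known. The labels call the replicates biological. Replicates differed by more than counting error (chi-square per gene 6.45 to 21.0). One gene that the naming rule picks is not reported here.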

Additional observations from a re-analysis of the deposited data

How the results depend on the processing

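H3C6, H2BC8, H2AC15 and H2BC12 kept their direction and their side of the threshold under all 16 alternatives. H2AC25, H2AC6, H2AC14 and H2AC8 did not, and the cause was not tested. The number of histone genes past the threshold ran from 6 to 12 over other tools, scalings, filters and offsets. It was 6 of 55 with the expression level offset, against 5186 of 19682 genes, and 12 of 55 with library sizes alone, against 5498. With no filter it was 11 of 64, against 5331 of 36838 genes, so the histone share was not below that of all genes there. Leaving out 1 library gave 5 histone genes (without shRNH1 replicate 1) to 14 (without shControl replicate 2). Of the 8 genes, 5 and 6 were shared there. Over all genes, 4150 of 20914 and 4654 of 19972 passed in these settings. Without both libraries numbered 2 the count was 10 of 56, with no count over all genes to set it against. The median SD of log2 CPM within a group, over the tested histone genes, was then 0.098 instead of 0.24. That SD rests on 2 libraries a group, and the libraries left out were those in which most histone genes were lowest. A smaller value was therefore to be found in any case and tests nothing. The log2 ratio of the summed histone level ran from −0.25 to −0.01 when 1 library was left out. Between libraries with the same replicate number, the correlations of deviations over all genes were 0.05, 0.06 and −0.05. Across the histone genes the correlations were 0.31, −0.02 and 0.33, and replicate 2 was lowest in both groups in 43 of 55. A correlation cannot see a shift that all genes compared share, so these values cannot show whether the numbers pair the libraries. With a replicate block, 7 histone genes passed, H2AC25 and H2AC6 not among them, and 5094 of all genes.

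Genes that did not pass changed sign around 0, always without passing there. With library sizes alone, the log2 fold changes became 0.10 for H1-4, 0.048 for H2AC20, 0.043 for H2AC11, 0.10 for H2BC17, 0.046 for H3C2, 0.047 for H3C10 and 0.080 for H4C2. With an offset for expression level they became 0.14, 0.11, 0.082, 0.12, 0.12, 0.080 and 0.034 in the same order. Offsets fitted to GC content and transcript length put H2BC17 at 0.0092 and H4C2 at 0.016. When 1 library was left out, the range was −0.19 to 0.13 for H1-4, −0.25 to 0.14 for H2AC20, −0.14 to 0.082 for H2BC17, −0.31 to 0.0013 for H2BC18, −0.026 to 0.14 for H2BC7, −0.19 to 0.052 for H3C2, −0.22 to 0.034 for H3C10, −0.075 to 0.16 for H3C1 and −0.22 to 0.071 for H4C2. In H2BC18, H3C13, H1-5, H2AC13, H4C5 and H4C3 the threshold was passed, downwards, without shControl replicate 2. H1-5 and H2AC13 also passed downwards with no filter, and H1-5 without shRNH1 replicate 3. H2AC13 and H3C13 passed downwards without both libraries numbered 2 as well. Members at about 1 CPM or below have wide intervals, and 3 libraries a group limit all of these values.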
